A study of Mus musculus with 12 samples.

Results

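The genes described here carry iron into developing red cells, store it, or answer to erythropoietin, the hormone that drives red cell production. The 10 genes are Tfrc, Tfr2, Epor, Erfe, Kit, Slc25a37, Steap3, Slc11a2, Fth1 and Ftl1, of 46603 gene identifiers in the count tables, and they were chosen by name, from a list of transferrin and erythropoietin receptors, Kit, erythroferrone, iron carriers and ferritins. All 10 were matched by Ensembl identifier. They were followed in RNA sequencing libraries of C57/Bl6 mice aged 8 months: NM1 KO blood, WT blood, NM1 KO spleen and WT spleen, with 3 libraries each. NM1 KO mice lack nuclear myosin 1, a form of the class I myosin gene Myo1c, and WT mice carry it. Blood was drawn from the submandibular vein and spleen tissue was taken from the tip of the organ. The labels do not say that each library is a separate mouse, so the p-values measure only the spread between these libraries.

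Red cell precursors take up iron bound to transferrin. The transferrin receptor carries it into endosomes, a reductase and a divalent metal transporter release it into the cytosol, and a mitochondrial carrier delivers it for heme synthesis. Iron that is not used is held in ferritin, a shell of heavy and light chains. The precursors survive and divide under erythropoietin and, at the earliest steps, under the ligand of Kit, and they release erythroferrone to free more iron for their use. As precursors mature into reticulocytes and red cells they stop dividing and lose most of their RNA. The mouse spleen makes red cells in its red pulp, where macrophages also recover iron from old ones.

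The 12 libraries fell apart by globin content, and this split ran across the labels. Globin genes took 48.9% to 56.1% of counts in 6 libraries, here called globin-rich, and 0.846% to 5.90% in 6 called globin-poor, with 25% as the dividing line. The globin-rich libraries were those labelled KO blood 02, KO blood 03, WT blood 01, KO spleen 03, WT spleen 02 and WT spleen 04. The globin-poor libraries were KO blood 04, WT blood 03, WT blood 04, KO spleen 01, KO spleen 04 and WT spleen 01. Markers of red pulp macrophages (8 genes, summed) reached 18.9 to 41.5 CPM in each globin-rich library, against 894 to 1407 CPM in each globin-poor one, so 3 libraries labelled spleen held little of them and 3 labelled blood held much. Globin-rich libraries held 9317793 to 12096089 counts and globin-poor ones 23140497 to 28243206 counts. All levels are counts-per-million values (CPM) with 12 globin genes left out of the total, which leaves 4092578 to 5828714 counts in globin-rich and 21776329 to 27409072 counts in globin-poor libraries. Labels may therefore not match the tissue of some libraries, which cannot be settled here, and a difference between blood and spleen below is one between labels. Each library keeps its label, and comparisons of genotype or tissue label are also given within each kind of library. Myo1c ranged from 128 to 200 CPM in KO and from 58.5 to 179 CPM in WT globin-rich libraries, and from 134 to 170 CPM in KO and 163 to 219 CPM in WT globin-poor libraries. Its gene count pools all forms of the gene, so it does not check the knockout of NM1.

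Iron-responsive elements tie several of these genes together. These are hairpins in messenger RNA, with a CAGTGN loop, which iron regulatory proteins bind when iron is scarce. Bound after the coding part, as in Tfrc, they protect the transcript, and bound before it, as in the ferritins, they block translation. A search of the GENCODE vM21 transcripts was made for a C, 5 bases, the loop letters CAGTG with a following base other than G, and 5 bases pairing with the first 5 (G with U pairs allowed). It found the pattern in 3 of the 10 genes and in 218 of 21523 coding genes, 1.013%. The elements of Tfrc, Fth1 and Ftl1 are shown 5′ to 3′ with their loop letters in capitals because they set how these transcripts are read out. Those of Tfrc lie after the coding part of Tfrc-201 on the plus strand of GRCm38, at chr16:32631220-32631246, chr16:32631599-32631625, chr16:32631664-32631690 and chr16:32631711-32631737. That of Fth1 lies before the coding part at chr19:9982733-9982759 on the plus strand, and that of Ftl1 before the coding part at chr7:45459780-45459806 on the minus strand. The other members, Slc11a2 among them, held no match to these letters. The search allowed no unpaired base within the 5 pairs, so it would miss hairpins of other shapes. A gene without a match may therefore still hold an element.
Tfrc element 1: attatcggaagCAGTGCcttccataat
Tfrc element 2: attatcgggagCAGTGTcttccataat
Tfrc element 3: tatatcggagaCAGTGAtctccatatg
Tfrc element 4: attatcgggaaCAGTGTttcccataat
Fth1 element: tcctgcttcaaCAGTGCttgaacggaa
Ftl1 element: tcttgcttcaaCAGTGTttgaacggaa

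Tfrc, Epor, Kit, Steap3 and Slc11a2 lay lower in all 6 globin-rich than in all 6 globin-poor libraries. These 5 of 10 members are the same share as over all genes, of which 49.8% of 14538 did so. Slc25a37, Fth1 and Ftl1 lay higher without overlap, where 3.49% of those genes did. Tfr2 and Erfe overlapped. With globin kept in the total, Slc25a37 and Fth1 also overlapped and Tfr2 lay lower, and with TMM scaling (trimmed mean of M-values) over the 12 libraries Tfrc overlapped, so these 4 placements depend on the scale. Since globin share is itself a red cell readout, these levels are a description and carry no test.

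**Figure D1:**
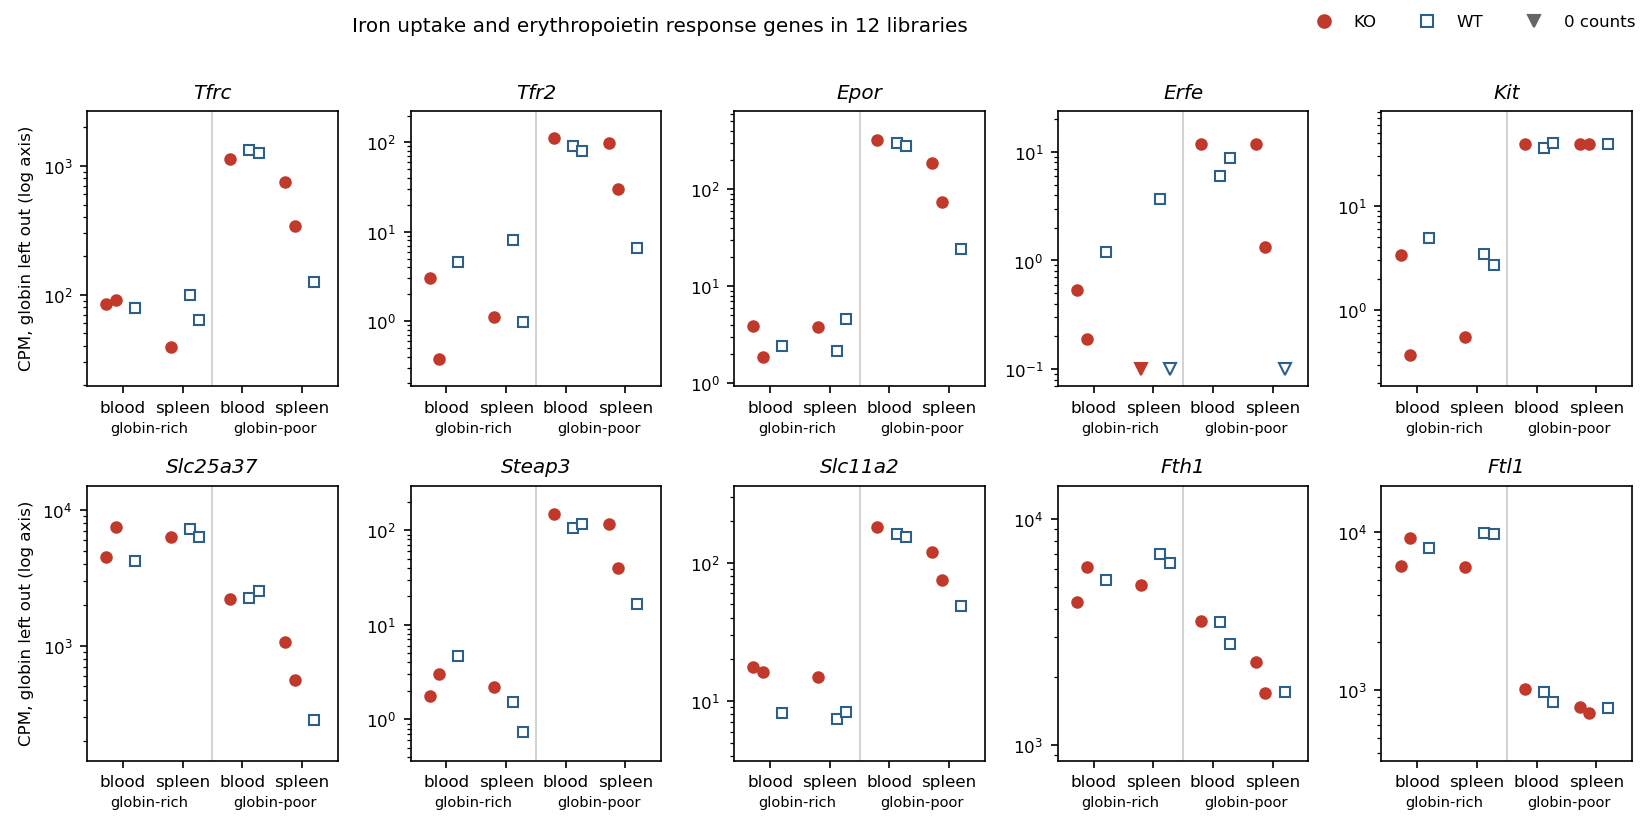
Level of each of the 10 genes in the 12 libraries, in CPM with globin left out, on a log axis of its own in each panel; each point is 1 library, filled circles are KO, open squares are WT, and triangles stand for 0 counts and are drawn at 0.1 CPM. Libraries are grouped by globin content and tissue label: Kit lies at 36.1 to 40.5 CPM in all globin-poor libraries, while Epor falls to 24.4 CPM in WT spleen 01.

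Tfrc, the transferrin receptor of dividing cells and the main door for iron into red cell precursors (ENSMUSG00000022797, chr16:32608920-32632794, plus strand), had 84.0, 91.3 and 39.1 CPM in KO blood 02, KO blood 03 and KO spleen 03, against 78.6, 99.5 and 63.5 CPM in WT blood 01, WT spleen 02 and WT spleen 04. In globin-poor libraries it had 1138, 747 and 339 CPM in KO blood 04, KO spleen 01 and KO spleen 04, against 1326, 1248 and 126 CPM in WT blood 03, WT blood 04 and WT spleen 01. It averaged 76.0 ± 21.8 CPM in globin-rich and 821 ± 502 CPM in globin-poor libraries (SD, n = 6 each), a 10.8-fold lower mean. The ratio was 21.7 with globin kept in the total and 5.03 with TMM scaling. KO and WT overlapped within each kind, and WT spleen 01 was the lowest of the globin-poor libraries. Tfr2, a second transferrin receptor that senses iron in liver and tunes the erythropoietin response in red cell precursors (ENSMUSG00000029716, chr5:137569840-137587481, plus strand), had 3.04, 0.376 and 1.10 CPM in the same KO globin-rich libraries, against 4.63, 8.05 and 0.977 CPM in the WT ones. In globin-poor libraries it had 112, 98.5 and 30.0 CPM in KO and 92.3, 80.6 and 6.65 CPM in WT. The globin-poor WT spleen 01 lay within the globin-rich range for Tfr2.

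Epor, the erythropoietin receptor (ENSMUSG00000006235, chr9:21958897-21963506, minus strand), showed the largest ratio of means between the kinds of library among the 10 genes. It had 3.93, 1.88 and 3.84 CPM in KO blood 02, KO blood 03 and KO spleen 03, against 2.40, 2.18 and 4.64 CPM in WT blood 01, WT spleen 02 and WT spleen 04. Globin-poor libraries held 318, 188 and 73.7 CPM in KO blood 04, KO spleen 01 and KO spleen 04, against 297, 279 and 24.4 CPM in WT blood 03, WT blood 04 and WT spleen 01. The mean was 62.5-fold lower in globin-rich libraries, on 10 to 22 counts per library there and 610 to 7228 counts in globin-poor ones. The ratio was 127 with globin kept in the total and 30.3 with TMM scaling. Erfe, the hormone erythroferrone, which precursors release under erythropoietin to lower hepcidin (ENSMUSG00000047443, chr1:91366430-91374217, plus strand), was the lowest of the set, near the detection limit in the globin-rich libraries and in WT spleen 01. It had 0.536, 0.188 and 0 CPM in KO globin-rich libraries, against 1.20, 3.70 and 0 CPM in WT ones, in the order given for Epor. It had 11.8, 11.8 and 1.33 CPM in KO globin-poor libraries, against 6.06, 8.70 and 0 CPM in WT ones. The zeros of KO spleen 03, WT spleen 04 and WT spleen 01 allow up to 0.548, 0.733 and 0.120 CPM, counting error only. Erfe overlaps Ilkap on the other strand, which reached 132 CPM, and whether reads were counted by strand is not given in the sources used here, so reads of the 2 genes may be mixed.

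Kit, the receptor for stem cell factor on progenitors and mast cells (ENSMUSG00000005672, chr5:75574916-75656722, plus strand), had the narrowest spread of the set among globin-poor libraries and a wide one among globin-rich libraries. In globin-rich libraries Kit had 3.40, 0.376 and 0.548 CPM in KO blood 02, KO blood 03 and KO spleen 03, against 4.98, 3.48 and 2.69 CPM in WT blood 01, WT spleen 02 and WT spleen 04. These rest on 2 to 29 counts per library, and KO blood 03 and KO spleen 03 stood below the other 4. In globin-poor libraries it had 39.2, 39.3 and 39.0 CPM in KO blood 04, KO spleen 01 and KO spleen 04, against 36.1, 40.5 and 39.1 CPM in WT blood 03, WT blood 04 and WT spleen 01. Its highest and lowest globin-poor libraries differed 1.12-fold, while this ratio was 13.0 for Epor, 10.5 for Tfrc and 1.74 for the median of 9909 genes averaging 10 CPM or more. Summed markers of blood cell progenitors (8 genes) came to 20.7 to 36.4 CPM in each globin-rich library, against 135 to 169 CPM in each globin-poor one. Those of mast cells and basophils (9 genes) came to 17.8 to 120 CPM, against 12.1 to 56.0 CPM, but Hdc, which makes histamine, carried the sum. The 8 others came to 2.93 to 8.05 CPM, against 4.18 to 19.2 CPM, and Tpsb2 was at 0 in all globin-rich libraries. How far either cell type bears on Kit was not tested.

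Transcripts for the release of iron from the endosome lay lower in globin-rich libraries without overlap, as did 49.8% of 14538 genes. Steap3, the ferrireductase of red cell precursors (ENSMUSG00000026389, chr1:120190757-120272705, minus strand), had 1.79, 3.01 and 2.19 CPM in KO blood 02, KO blood 03 and KO spleen 03, against 4.63, 1.52 and 0.733 CPM in WT blood 01, WT spleen 02 and WT spleen 04. It had 147, 116 and 39.7 CPM in KO blood 04, KO spleen 01 and KO spleen 04, against 106, 115 and 16.5 CPM in WT blood 03, WT blood 04 and WT spleen 01. Its mean was 39.0-fold lower in globin-rich libraries, 77.2-fold with globin kept in the total and 19.7-fold with TMM scaling. Slc11a2, the divalent metal transporter DMT1 (ENSMUSG00000023030, chr15:100387898-100425072, minus strand), had 17.7, 16.3 and 14.8 CPM in the KO globin-rich libraries, against 8.24, 7.40 and 8.31 CPM in the WT ones, in the same order. It had 180, 119 and 74.9 CPM in KO globin-poor libraries, against 162, 153 and 48.9 CPM in WT ones. Slc11a2 was the 1 of 10 members whose KO and WT values did not overlap in globin-rich libraries, with KO above WT, a share near the 12.9% of 13764 genes that did not overlap there. Its globin-rich values rest on 34 to 99 counts per library.

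The promoter windows searched held GATA motifs, the kind of sequence recognised by GATA1, the master regulator of red cell genes, no more often than others. The motif was in 2 of the 8 members with an entry in the RefSeq promoter table of GRCm38.p6, Epor and Steap3, read over the 250 bases before the start, and in 26.54% of 32851 promoters of that length. The letters searched on either strand were AGATAA or its variants with T first, G last or both. The table holds 4 windows for Steap3. The start that follows the one searched lies 1625 bases inside the gene as GENCODE draws it, so it stands for 1 of several starts. For Fth1 it holds 2, and the one searched ends at chr19:9980599. Base 88 of the transcript Fth1-201 lies farther on, at chr19:9982733, so the start of that transcript may not have been searched. The window of Epor, its only entry, is shown because Epor had the largest ratio of means between the kinds of library. Its motif, in capitals, begins 54 bases before the start (minus strand, chr9:21963577-21963826). A match of letters is a description and does not show binding.
Epor promoter: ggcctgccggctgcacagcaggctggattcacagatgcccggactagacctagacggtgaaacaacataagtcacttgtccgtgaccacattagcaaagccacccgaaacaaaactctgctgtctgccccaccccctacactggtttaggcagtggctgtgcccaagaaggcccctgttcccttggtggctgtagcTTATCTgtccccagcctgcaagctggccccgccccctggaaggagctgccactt

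Slc25a37, the mitochondrial iron importer mitoferrin 1 (ENSMUSG00000034248, chr14:69241848-69285112, minus strand), was among the most abundant of the set in globin-rich libraries. It had 4458, 7479 and 6244 CPM in KO blood 02, KO blood 03 and KO spleen 03, against 4216, 7221 and 6346 CPM in WT blood 01, WT spleen 02 and WT spleen 04. In globin-poor libraries it had 2194, 1066 and 561 CPM in KO blood 04, KO spleen 01 and KO spleen 04, against 2254, 2525 and 285 CPM in WT blood 03, WT blood 04 and WT spleen 01. Its mean was 4.05-fold higher in globin-rich libraries, 1.98-fold with overlap when globin is kept in the total, and 8.76-fold with TMM scaling. It varied 8.87-fold among globin-poor libraries, close to Steap3 at 8.92-fold.

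The ferritin chains changed their proportion between the kinds of library. Ftl1, the light chain (ENSMUSG00000050708, chr7:45457944-45459884, minus strand), had 6076, 9087 and 6003 CPM in KO blood 02, KO blood 03 and KO spleen 03, against 7866, 9775 and 9709 CPM in WT blood 01, WT spleen 02 and WT spleen 04. It had 1011, 776 and 715 CPM in KO blood 04, KO spleen 01 and KO spleen 04, against 971, 837 and 767 CPM in WT blood 03, WT blood 04 and WT spleen 01. The mean was 9.56-fold higher in globin-rich libraries (4.66-fold with globin kept, 21.5-fold with TMM scaling), and the ranges stayed apart on all 3 scales. Fth1, the heavy chain, which oxidises iron (ENSMUSG00000024661, chr19:9980598-9985098, plus strand), had 4281, 6089 and 5063 CPM in KO and 5360, 6985 and 6364 CPM in WT globin-rich libraries, in that order. It had 3540, 2320 and 1698 CPM in KO and 3479, 2791 and 1702 CPM in WT globin-poor libraries. Its mean was 2.20-fold higher in globin-rich libraries with globin left out and 1.07-fold with globin kept, where the ranges overlapped. With TMM scaling it was 4.84-fold higher.

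Within a library, where the scale cancels, Ftl1 counts over Fth1 counts came to 1.19 to 1.53 in globin-rich and to 0.279 to 0.450 in globin-poor libraries. The ratio was 1.42, 1.49 and 1.19 in KO and 1.47, 1.40 and 1.53 in WT globin-rich libraries, and 0.286, 0.335 and 0.421 in KO and 0.279, 0.300 and 0.450 in WT globin-poor ones. KO and WT overlapped in both. Both chains together made up 1.04% to 1.68% of non-globin counts in globin-rich and 0.241% to 0.455% in globin-poor libraries. Ftl1-ps1, a near copy of Ftl1, reached 208 CPM, and reads that fit both cannot be assigned with certainty.

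**Figure D2:**
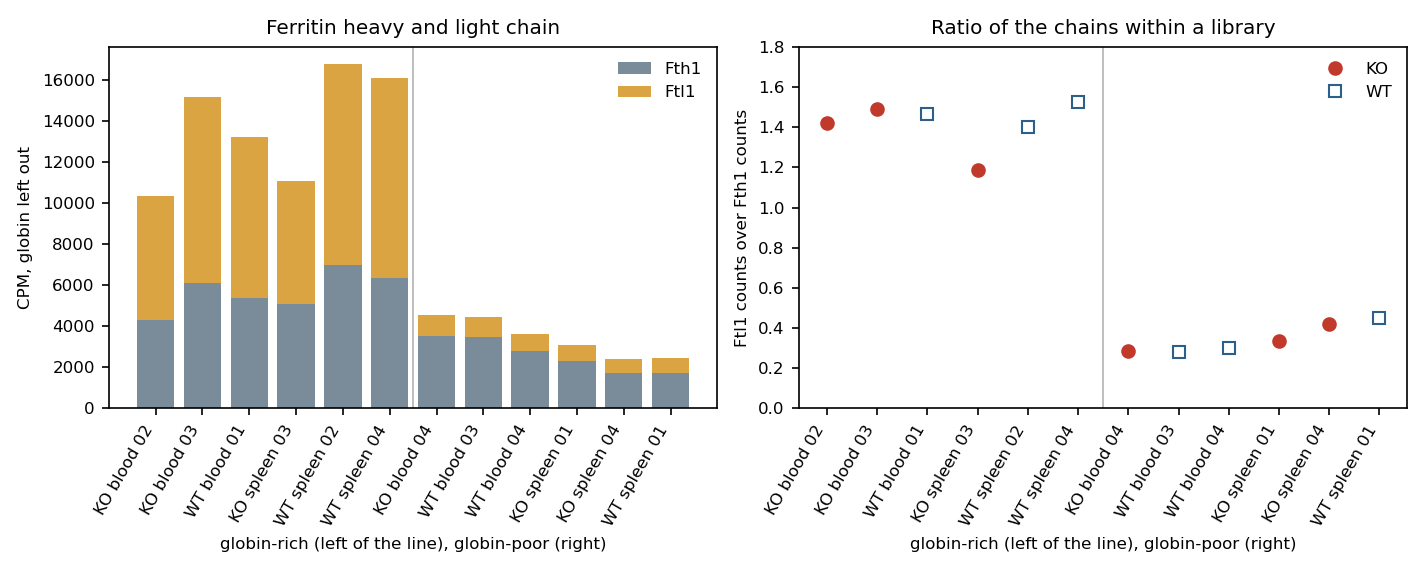
Ferritin in each library: on the left, stacked bars of Fth1 and Ftl1 in CPM with globin left out; on the right, Ftl1 counts over Fth1 counts, with filled circles for KO and open squares for WT. The vertical line parts the 6 globin-rich from the 6 globin-poor libraries; the ratio lies between 1.19 and 1.53 on the left of it and between 0.279 and 0.450 on the right.

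Set against transcript length, the order of levels also differed between the kinds of library. In CPM per kilobase of the first APPRIS principal transcript, Ftl1 (8353 ± 1784, SD, n = 6) and Fth1 (6125 ± 1052) led in globin-rich libraries, followed by Slc25a37 at 1436 ± 329. Tfrc came next at 15.5 ± 4.45 and Slc11a2 at 4.01 ± 1.54, and the other members were at most 1.79. The ranges of Ftl1 and Fth1 overlapped there. In globin-poor libraries Fth1 led at 2786 ± 886 CPM per kilobase, then Ftl1 at 874 ± 123, Slc25a37 at 355 ± 231, Tfrc at 168 ± 103 and Epor at 112 ± 70.2. The ranges of Fth1, Ftl1 and Slc25a37 lay apart from each other, those of Slc25a37 and Tfrc and of Tfrc and Epor overlapped, and Erfe was lowest at 2.35 ± 1.81.

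KO and WT did not differ detectably in any of the 10 genes under either tissue label, and 0 of 10 passed edgeR's quasi-likelihood test (Benjamini-Hochberg adjusted p under 0.05 over all genes). Under the blood label 0% of 15002 genes passed, 27 had an unadjusted p under 0.05, and DESeq2 and limma-voom also called 0. Under the spleen label 0% of 15402 genes passed, 359 had an unadjusted p under 0.05, and both other tools called 0. Under the spleen label Steap3 stood at a log2 fold change of 2.71 ± 1.19 (SE, adjusted p = 0.979), Epor at 2.58 ± 1.06 (adjusted p = 0.979) and Slc11a2 at 1.22 ± 0.57 (adjusted p = 0.979). Ftl1 stood at -2.22 ± 1.88 and Fth1 at -1.64 ± 1.42. The KO spleen group held 2 globin-poor libraries and 1 globin-rich one, and the WT spleen group 1 and 2, so kind and genotype move together here. In blood the makeup was the reverse, and the fold changes were smaller than their SE for 9 of the 10 genes, all but Slc25a37 at 1.16 ± 0.98.

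**Figure D3:**
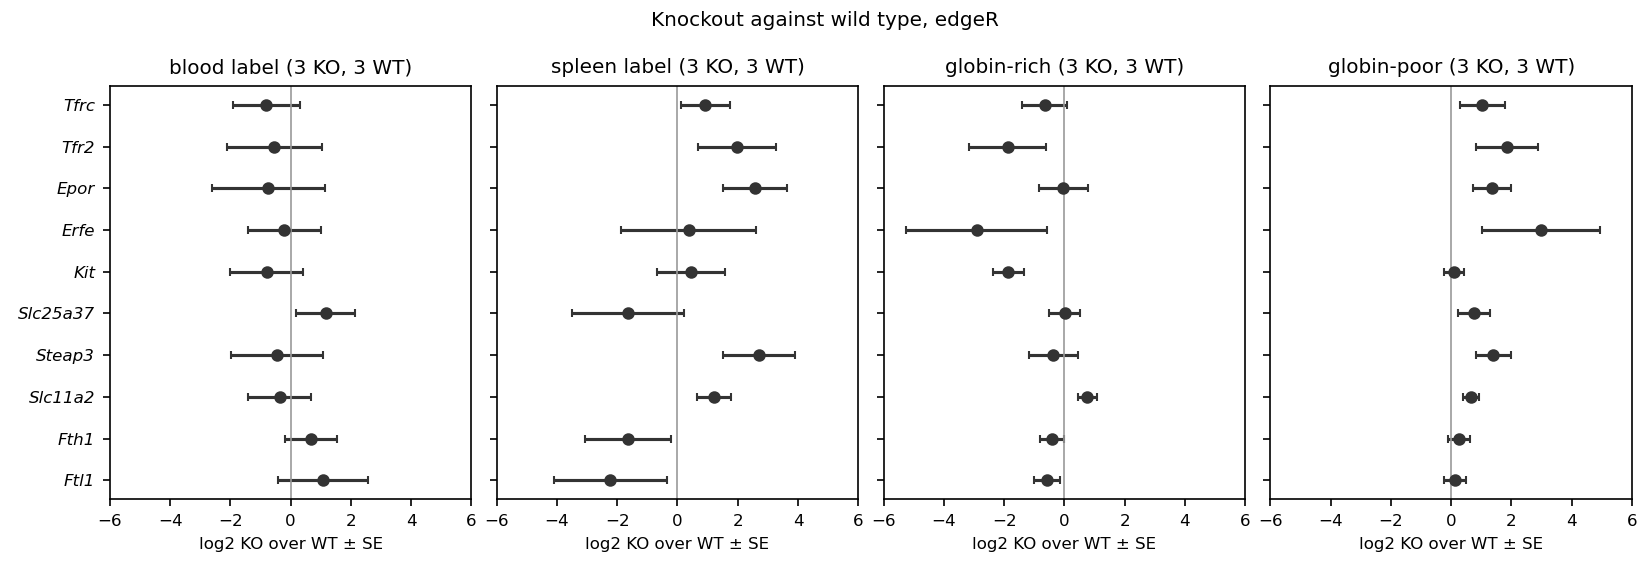
Log2 fold change of KO over WT for the 10 genes from edgeR, with bars of 1 SE, in 4 comparisons of 3 KO with 3 WT libraries: blood label, spleen label, globin-rich and globin-poor. Values above 0 are higher in KO by the fit, which in the globin-rich and globin-poor panels is adjusted for tissue label. In the globin-poor panel Tfrc, Epor, Slc25a37, Fth1 and Ftl1 lie above 0 although their unadjusted mean CPM was lower in KO. Slc11a2 lies at 0.77 ± 0.32 in globin-rich and 0.66 ± 0.27 in globin-poor libraries, and no gene passed the adjusted threshold in any panel.

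The effect of the knockout was not shown to differ between the tissue labels for any member. The difference, spleen label minus blood label, was largest for Epor at 3.36 ± 2.39 on the log2 scale (edgeR adjusted p = 0.928) and for Ftl1 at -3.28 ± 2.40 (adjusted p = 0.928). KO spleen and WT blood held more globin-poor libraries than WT spleen and KO blood, so the kind of library enters this difference. Of 17555 genes, 0 were called by edgeR, DESeq2 or limma-voom, and 239 had an unadjusted p under 0.05 in edgeR.

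Within libraries of 1 kind, Slc11a2 was the member nearest to a difference by genotype in the same direction in both. Slc11a2 stood 0.77 ± 0.32 higher in KO on the log2 scale in globin-rich libraries (edgeR adjusted p = 0.294) and 0.66 ± 0.27 higher in globin-poor libraries (adjusted p = 1). The globin-poor means, 125 CPM in KO and 121 CPM in WT libraries, barely differed. The fitted value there is adjusted for tissue label, and WT spleen 01, at 48.9 CPM, is the lone WT library of its cell. With 1 genotype effect over all 12 libraries it was 0.70 ± 0.20 (adjusted p = 0.733), positive in each of 19 alternatives (0.53 to 0.88) and called in 0 of them (adjusted p 0.0630 to 0.949). As background, KO and WT ranges did not overlap for 12.9% of 13764 genes in globin-rich and for 2.92% of 14535 genes in globin-poor libraries, where all 10 members overlapped. The called share was 0.00523% of 19117 genes in globin-rich and 0% in globin-poor libraries, with 0 members in either, and 0% over all 12 libraries. DESeq2 called Kit in globin-rich libraries and 0 members otherwise, and limma-voom called 0. Steap3 stood at 1.39 ± 0.58 in globin-poor and -0.37 ± 0.82 in globin-rich libraries. Epor stood at 1.35 ± 0.64 and -0.03 ± 0.83 in the same order. The Epor means in globin-poor libraries were 193 CPM in KO and 200 CPM in WT, opposite to its fitted value. That value carries the same adjustment for tissue label and the same lone WT library. In globin-poor libraries 477 genes and over all 12 libraries 1250 genes had an unadjusted p under 0.05, and DESeq2 called 9 and 1.

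Kit stood lower in KO globin-rich libraries by the fit, at -1.86 ± 0.51 on the log2 scale (edgeR adjusted p = 0.178), and the groups overlapped through KO blood 02. DESeq2 called it at -1.93 ± 0.54 (adjusted p = 0.0234), edgeR without KO blood 02 at -2.99 ± 0.46 (adjusted p = 0.00749) and edgeR with no filter at -1.63 ± 0.45 (adjusted p = 0.0298). These fits called 2.75%, 5.58% and 1.54% of all genes. Without KO spleen 03 it was -1.11 ± 0.56 (adjusted p = 0.782). The adjusted p ran from 0.00749 to 0.782 over 20 alternatives. In globin-poor libraries Kit stood at 0.08 ± 0.33, and the difference between the kinds was -1.94 ± 0.61 (adjusted p = 0.476). The 2 libraries with low Kit also had few counts of olfactory receptors, genes known for their use in the nose. The sum over 1062 such genes was 115, 7.51 and 6.95 CPM in KO blood 02, KO blood 03 and KO spleen 03, against 132, 102 and 93.6 CPM in WT blood 01, WT spleen 02 and WT spleen 04. Tfr2 was lowest in KO blood 03 too, at 0.376 CPM, next to 0.977 CPM in WT spleen 04 and 1.10 CPM in KO spleen 03. The part of this background in the Kit result was not tested.

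Among globin-poor libraries, 9 of the 10 members had a higher mean CPM under the blood than under the spleen label, and Slc11a2 passed the test. The 3 blood-labelled libraries had 153 to 180 CPM of Slc11a2 and the 3 spleen-labelled ones 48.9 to 119 CPM, a log2 fold change of 1.55 ± 0.26 (edgeR adjusted p = 0.0320). It was the 1 of 10 members called, where 0.806% of 19117 genes were called in either direction and 0.696% as higher under the blood label. Slc25a37 stood at 2.27 ± 0.50 (adjusted p = 0.0504), Epor at 2.32 ± 0.63 (adjusted p = 0.118), Fth1 at 0.99 ± 0.37 (adjusted p = 0.198), Steap3 at 1.70 ± 0.62 (adjusted p = 0.221) and Tfrc at 1.92 ± 0.74 (adjusted p = 0.245). Kit stood at 0.04 ± 0.45, with means of 38.6 CPM under the blood and 39.1 CPM under the spleen label, and Ftl1 at 0.50 ± 0.38. Tfr2 stood at 1.46 ± 1.09 and Erfe at 1.42 ± 1.77. The median over the members was 1.51, against -0.12 over all genes tested.

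For 6 of the 10 members (Tfrc, Epor, Slc25a37, Slc11a2, Fth1 and Ftl1) every globin-poor blood-labelled library lay above every spleen-labelled one, where 9.56% of 14535 genes did so. The spleen-labelled libraries differed widely among themselves, in the order KO spleen 01, KO spleen 04, WT spleen 01 for Tfrc, Tfr2, Epor, Erfe, Slc25a37, Steap3 and Slc11a2. KO spleen 01 lay within the blood-labelled range for Tfr2, Erfe and Steap3. The call of Slc11a2 was lost without WT blood 03 (1.41 ± 0.27, adjusted p = 0.110), KO blood 04 (1.79 ± 0.32, adjusted p = 0.127), WT spleen 01 (1.32 ± 0.32, adjusted p = 0.274) or KO spleen 04 (1.41 ± 0.29, adjusted p = 0.231), and in a fit of the 6 globin-poor libraries alone (1.58 ± 0.29, adjusted p = 0.0567). DESeq2 called Tfrc, Epor, Slc25a37, Slc11a2 and Fth1, among 7.07% of all genes, and without KO spleen 01 edgeR called Tfrc, Epor, Slc25a37, Steap3 and Slc11a2, among 8.53% of all genes. Over 20 alternatives Slc11a2 was called in 14 and Slc25a37 in 11. Epor was called in 4, Steap3 and Fth1 in 3 each and Tfrc in 2. The replicate block also lost the call of Slc11a2, and the number of all genes called varied widely between fits, as given under processing.

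**Figure D4:**
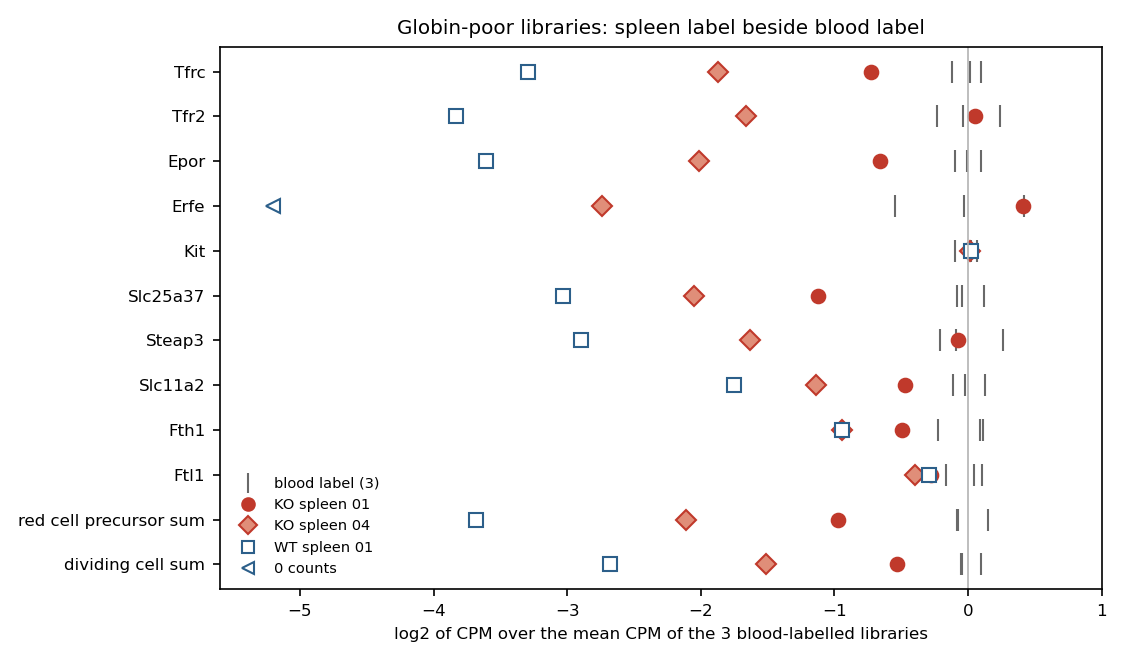
Log2 ratio of each of the 6 globin-poor libraries to the mean of the 3 blood-labelled ones, for the 10 genes and for the summed markers of red cell precursors and of dividing cells, from CPM with globin left out; ticks are blood-labelled libraries, symbols the 3 spleen-labelled ones, and the open triangle stands for 0 counts. The symbols of most genes spread in 1 order, KO spleen 01 nearest to the ticks and WT spleen 01 farthest, while Kit stays near 0.

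Markers of red cell precursors moved with the values of most members. The sum of 15 precursor markers was 11101 to 13045 CPM in the blood-labelled and 917 to 6002 CPM in the spleen-labelled globin-poor libraries, and that of 10 dividing cell markers was 5154 to 5720 CPM and 835 to 3711 CPM. None of either list was at 0 in all libraries of a kind. Per 1000 CPM of precursor markers, Tfrc came to 95.6 to 138 CPM in the 6 globin-poor libraries, a 1.44-fold range, and Epor to 21.4 to 31.3 CPM, a 1.47-fold range. Slc25a37 then ranged 1.75-fold, Steap3 2.20-fold, Tfr2 2.66-fold and Slc11a2 4.55-fold, while Kit ranged 13.7-fold, Ftl1 13.0-fold and Fth1 8.67-fold. Erfe had 0 counts in WT spleen 01, so it has no such ratio. Without WT spleen 01 the range was 1.16-fold for Slc25a37, 2.35-fold for Slc11a2, 4.62-fold for Kit, 4.09-fold for Ftl1 and 2.91-fold for Fth1. In bulk tissue, fewer cells of a type and less RNA per cell cannot be told apart, and the part of cell makeup in these differences was not tested.

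In globin-rich libraries the precursor markers did not move as a block, so no level is given there per precursor marker. Of the 15, 4 lay higher than in globin-poor libraries, 2 lower and 9 overlapped, where 3.49% of all genes lay higher and 49.8% lower. Alas2, the first enzyme of heme synthesis in red cells, ran at 40555 to 57699 CPM in each globin-rich library, against 125 to 1402 CPM in the globin-poor ones, while Klf1, a transcription factor of red cell genes, had 1.25 to 4.35 CPM and 36.2 to 576 CPM. With globin left out, all 10 dividing cell markers lay lower in the globin-rich libraries, a placement that 49.8% of all genes shared. Together they came there to 164 to 294 CPM. Mki67 was barely apart, at up to 142 CPM in globin-rich and from 144 CPM in globin-poor libraries. Other scales were not compared for these markers. Between the blood and spleen labels all 10 members overlapped, where 7.25% of genes lay higher and 3.5% lower without overlap. Of the 10, 0 were called by edgeR, where 0.779% of 19117 genes were, 0.0837% as higher and 0.696% as lower under the blood label. DESeq2 and limma-voom also called 0 members. Slc25a37 stood at -0.76 ± 0.49 (edgeR adjusted p = 0.618) and Slc11a2 at -0.01 ± 0.29 (adjusted p = 1). The difference between the kinds in this contrast was -3.04 ± 0.76 for Slc25a37 (adjusted p = 0.0872) and -1.56 ± 0.41 for Slc11a2 (adjusted p = 0.0938), which did not pass.

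Other genes of iron transport were placed between the kinds of library much as all genes were, of which 49.8% lay lower and 3.49% higher in globin-rich libraries without overlap. Of 16 iron transport genes averaging 1 CPM or more (19 listed), 8 lay lower and 1 higher, shares near those of all genes. Abcb10, a mitochondrial transporter that binds mitoferrin 1, had a median of 19.6 CPM in globin-rich (14.4 to 25.7) and 417 CPM in globin-poor libraries (62.5 to 578). Slc48a1, which carries heme out of lysosomes, was the 1 that lay higher, with 2266 CPM (1932 to 3051) and 177 CPM (97.3 to 226). Slc40a1, the iron exporter ferroportin, had 31.6 CPM (22.4 to 112) and 160 CPM (152 to 206).

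Of 11 iron sensing and storage genes at that level (15 listed), 5 lay lower and 2 higher, beside the 49.8% and 3.49% of all genes. Ncoa4, the receptor that delivers ferritin for breakdown, had a median of 539 CPM in globin-rich (310 to 556) and 13.1 CPM in globin-poor libraries (11.1 to 31.8). Hfe2, the other that lay higher, was low, at 3.64 CPM (0.715 to 28.6) and 0.301 CPM (0 to 0.620). Hmox1, which opens the heme ring, had 8.64 CPM (2.50 to 25.0) and 266 CPM (198 to 283). Aco1, an iron regulatory protein, had 10.5 CPM (5.22 to 18.5) and 44.4 CPM (30.0 to 47.4), while the ranges of Ireb2, the other one, overlapped at 40.9 CPM (16.8 to 55.1) and 69.6 CPM (54.6 to 85.2).

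Of 22 erythropoietin signalling genes (23 listed), 9 lay lower and 1 higher, again beside 49.8% and 3.49% of all genes. Bcl2l1, the survival gene that keeps late precursors alive, was the higher one, with a median of 1116 CPM in globin-rich (794 to 1646) and 216 CPM in globin-poor libraries (79.0 to 376). Cish, a feedback inhibitor induced through Stat5, had 0.350 CPM (0.183 to 1.47) and 13.3 CPM (9.13 to 20.2), and Jak2, the kinase of the receptor, overlapped at 93.8 CPM (66.4 to 112) and 87.3 CPM (60.5 to 105). Epo itself was at 0 in all globin-poor libraries and at most 1.09 CPM in globin-rich ones.

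None of the 3 lists held a gene called by edgeR in any comparison of genotype or label. The nearest were Ccnd3 (1.10 ± 0.26 on the log2 scale, adjusted p = 0.0589), Bcl2l1 (1.90 ± 0.46, adjusted p = 0.0712) and Abcb10 (2.10 ± 0.50, adjusted p = 0.0778), all higher under the blood label in globin-poor libraries. The medians of the lists there were 0.20 for iron transport, 0.15 for iron sensing and storage and -0.16 for erythropoietin signalling, against -0.12 over all genes tested. For KO over WT in globin-rich libraries the medians were -0.35, -0.17 and -0.15, against -0.15 over all genes. Heph, a copper ferroxidase, had the smallest edgeR adjusted p there, 0.273 (-3.74 ± 1.41). It lay near the detection limit, at 0 to 0.870 CPM in each globin-rich library. In globin-poor libraries they were 0.03, 0.06 and 0.03, against -0.0046 over all genes, with an adjusted p of 1 for each gene of the lists.

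The genes whose profile over the 12 libraries was most like that of a member were found by the smallest root mean square difference of centred log2(CPM + 1) among 9108 other genes averaging 10 CPM or more. Among the closest to Tfrc were Abcg2 (0.21) and Cpox (0.23), an enzyme of heme synthesis. Epor was nearest to Sec14l2 (0.32), Hmgb3 (0.36) and Rad51ap1 (0.38), and Steap3 to the DNA replication genes Lig1 (0.31) and Rrm1 (0.33) and to Ncapg2 (0.37). Kit was nearest to Itga9 (0.25), Shank3 (0.27) and Dpysl3 (0.29), and Slc11a2 to Mad2l1 (0.23), Hars (0.23) and Akip1 (0.24).

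Slc25a37 was nearest to St3gal5 (0.29), Bcl2l1 (0.30) and Paqr9 (0.30). Fth1 was nearest to Taldo1 (0.14), Fis1 (0.20) and Ost4 (0.20), and Ftl1 to its copy Ftl1-ps1 (0.17), Sh3glb1 (0.18) and the autophagy gene Map1lc3b (0.21). Tfr2 (Fignl1, Abcg4 and Cited4, 0.46 to 0.53) and Erfe (Scrn3, Dyrk3 and Tom1l1, 0.61 to 0.62) had more distant neighbours. These likenesses were taken over libraries that share the split by globin content and are descriptions.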

How the data were processed

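Raw counts per gene were deposited by the authors, 1 table per library, and were used as deposited. Per the submitters' processing notes, the tools were HTSeq, HISAT2 2.0.4, SAMtools 0.1.19, Trimmomatic 0.36 and FastQC, and the builds mm10 and GRCm38. The strand setting and annotation release are not given in the sources used here. GENCODE vM21 held 46091 of 46603 identifiers.

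The members, lists and alternatives were chosen with earlier results of these data known. A library was called globin-rich when over 25% of its counts were globin. The 12 globin genes were left out before TMM scaling, filterByExpr and edgeR's robust quasi-likelihood F test (edgeR 4.0.16, limma 3.58.1, DESeq2 1.42.0, R 4.3.3, Python 3.11.15), with Benjamini-Hochberg adjustment over all genes and a threshold of 0.05. Groups under a tissue label were fitted alone, 3 against 3. Comparisons within a kind used all 12 libraries with 4 cells of kind by label, and a genotype effect for each kind or 1 in all. SE is the log2 fold change divided by the root of F. In 1 library, 0 counts allow up to 3 counts, which is 0.515 to 0.733 CPM in a globin-rich library and 0.109 to 0.138 CPM in a globin-poor one, counting error only. The smallest chi-square per degree of freedom between any pair of libraries was 8.06, so none was deposited more than once. Fits were also run on simulated counts to check the code, which does not show how well they suit the spread of these data.

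All 10 members were tested in each comparison, and their levels are given for each library. In most comparisons the text gives fold changes for only some of them. From the 3 pathway lists (57 genes), called genes or, with none called, those of smallest p were named for comparisons within a kind, and those given beside the split by globin were chosen after their values were seen. Alternatives were other scalings, no filter, DESeq2, limma-voom, a replicate block, a kind term, the 6 libraries of a kind alone, and leaving out each library; TMM-scaled levels, and ranges per precursor marker without WT spleen 01, were added after seeing the data.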

Additional observations from a re-analysis of the deposited data

How the results depend on the processing

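Of 1467 log2 fold changes of single members under alternatives, 1413 kept their direction (or moved by less than 1 SE) and their side of the threshold, 27 crossed into it, 6 dropped out of it, 21 turned sign by over 1 SE with no call on either side, and 0 called values reversed. Erfe could not be fitted under the other 3. Higher under the blood label in globin-poor libraries, 1 member was called, beside 0.806% of all genes in either direction. It was 2 with globin kept in TMM, by library size only or with DESeq2 size factors in edgeR. No filter and DESeq2 gave 5, DESeq2 among 7.07% of all genes, limma-voom gave 4 and the 6 libraries alone 0. With 1 library left out it was 0 to 5, the most without KO spleen 01, among 8.53% of all genes. Numbers of all genes called with no filter, with limma-voom and in the 6 alone follow below. The cause was not tested. For KO over WT in globin-rich libraries 0 were called, but 2 with no filter (Kit and Slc11a2), among 1.54% of all genes. DESeq2 called 1 (Kit), among 2.75% of all genes. With 1 library left out 0 to 1 were called, the 1 being Kit without KO blood 02, among 5.58% of all genes. With a library left out the other comparisons called 0 members. Library size alone moved the median log2 fold change of all genes under the spleen label to 0.54, against 0.02 with TMM. Between the kinds of library, 8 members did not overlap, against 7 with globin kept and 7 with TMM scaling.

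Counts of all genes called depended more on the setting. For KO over WT in globin-rich libraries 1 gene was called, and 0 with globin kept, DESeq2 size factors, limma-voom or the 6 libraries alone, 28 by library size only, 548 with no filter, 525 with DESeq2 and 0 to 1102 (the most without KO blood 02) with 1 library left out. In globin-poor libraries 0 were called, and 3 by library size only, 36 with no filter, 9 with DESeq2 and 0 to 2 with 1 left out. Over all 12 libraries 0 were called, and 13 with no filter, 1 with DESeq2 and 0 to 2 with 1 left out. Between the labels in globin-rich libraries 149 were called, and 6 by library size only, 298 with no filter, 630 with DESeq2, 1 in the 6 alone and 2 to 192 with 1 left out (2 without WT blood 01). In globin-poor libraries 154 were called, and 1030 with no filter, 1351 with DESeq2, 1647 with limma-voom, 9 in the 6 alone and 1 to 1320 with 1 left out (1320 without KO spleen 01 and 1 without KO blood 04, WT spleen 01 or KO spleen 04).

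The labels do not say that a shared replicate number marks a mouse or batch, and the data could not show it. Deviations of same-numbered libraries correlated positively in all 6 pairs of 1 kind (0.37 to 0.81) and negatively in all 7 pairs of mixed kind (-0.87 to -0.61), so the sign followed globin content. With the replicate block 0 members were called in each comparison (Slc11a2 between labels in globin-poor libraries stood at 1.56, edgeR adjusted p = 0.193), and the genes called between labels numbered 3 in globin-poor and 1 in globin-rich libraries; for KO over WT in globin-rich libraries 0 genes were called.

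Depth limits Kit, Epor, Erfe, Tfr2 and Steap3 in globin-rich libraries, where they rest on at most 37 counts per library. Slc11a2 rests there on 34 to 99 counts per library.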
